A study of Mus musculus with 4 samples.

Results

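The genes described here are 42 listed genes of the interferon response and of antigen processing by major histocompatibility complex (MHC) class I. They are a list of gene names, drawn up with earlier results of these arrays known. Each gene was represented by the probe set, among those annotated to its symbol alone, with the highest mean over all arrays, and 40 of the 42 could be measured in this way, out of 18193 genes on the array. Isg15 and Ifi44 are not analysed here. The cells were C3H10T1/2, a mouse mesenchymal stem cell line, grown under standard conditions and either given recombinant human BMP3 at 100 ng/ml or left untreated, each for 6 hours. BMP3 is a secreted signalling protein of the TGF-beta superfamily. There were 2 BMP3 arrays and 2 control arrays, called biological replicates by the labels, which do not say whether they came from separate cultures, so p-values measure the spread between these arrays. Neither group is labelled as having received interferon, and the labels name no vehicle for the controls.

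Interferons are cytokines, and those of type I are released by cells that sense foreign nucleic acid. Type I interferons bind a receptor of the subunits IFNAR1 and IFNAR2, and interferon gamma binds IFNGR1 and IFNGR2. Both receptors signal through Janus kinases, JAK1 among them, to STAT transcription factors. STAT2 and IRF9 are parts of the complex ISGF3, which binds interferon-stimulated response elements, while pairs of STAT proteins bind gamma-activated sites. Their target genes encode antiviral proteins, GTPases and parts of the machinery that cuts peptides and loads them on MHC class I. Fibroblast-like cells express many of these genes at a low tonic level without added interferon.

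Short stretches before the start of 4 members are shown because they hold matches to the response element through which interferons act. The set spans genes with lower means after BMP3 (Bst2, Ifit3, Gbp2), though the groups of Ifit3 overlapped, and 1 gene with nearly equal values (B2m). Each stretch is the 250 bases before the gene's start, 5′ to 3′ on the gene's own strand, from RefSeq (GRCm38.p6). Capitals mark matches to GAAANNGAAA on either strand, a core of the interferon-stimulated response element. Bst2 lies on the minus strand at chr8:71537473-71537722, Ifit3 on the plus strand at chr19:34583279-34583528, Gbp2 on the plus strand at chr3:142620413-142620662, and B2m on the plus strand at chr2:122147437-122147686.
Bst2: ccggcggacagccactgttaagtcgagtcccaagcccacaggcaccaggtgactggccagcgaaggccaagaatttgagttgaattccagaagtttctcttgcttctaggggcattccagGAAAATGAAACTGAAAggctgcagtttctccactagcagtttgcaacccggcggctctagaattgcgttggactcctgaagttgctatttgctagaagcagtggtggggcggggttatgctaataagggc
Ifit3: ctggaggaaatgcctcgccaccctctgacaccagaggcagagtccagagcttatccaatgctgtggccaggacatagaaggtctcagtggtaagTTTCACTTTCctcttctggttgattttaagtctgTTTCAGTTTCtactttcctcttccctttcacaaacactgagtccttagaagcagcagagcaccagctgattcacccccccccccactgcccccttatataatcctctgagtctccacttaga
Gbp2: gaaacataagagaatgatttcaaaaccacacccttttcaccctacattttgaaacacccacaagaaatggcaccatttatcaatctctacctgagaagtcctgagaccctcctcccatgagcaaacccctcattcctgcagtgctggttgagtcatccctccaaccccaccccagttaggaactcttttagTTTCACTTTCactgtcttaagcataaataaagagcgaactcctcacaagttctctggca
B2m: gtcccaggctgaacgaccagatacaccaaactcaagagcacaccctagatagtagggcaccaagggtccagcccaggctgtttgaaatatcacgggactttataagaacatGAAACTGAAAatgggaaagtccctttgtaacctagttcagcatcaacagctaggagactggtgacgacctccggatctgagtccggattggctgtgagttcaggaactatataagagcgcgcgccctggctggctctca
In Bst2 the 2 matches overlap and begin 130 and 124 bases before the start. The matches of Ifit3 begin 156 and 122 bases before it, that of Gbp2 59 bases and that of B2m 139 bases before it. Windows of 300 bases, 250 before and 50 after a start, were searched for 35 of the 42 members, and 14 of the 35 held the motif. Some members have more than 1 window, and counted by window it was 14 of 39 (35.9%). Over all RefSeq windows of this length, 3.44% held it. The looser gamma-activated site TTCNNNGAA was found in at least 1 window of 10 of the 35 members. Counted by window it was 10 of 39 (25.6%), against 8.30% of all windows. A match is a description of the letters and not a shown binding site. Among members averaging a log2 intensity of 6 or more, Igtp, Ddx58, Irgm1 and Stat2 also held GAAANNGAAA matches. Their log2 differences, BMP3 minus control, were -0.56, -0.24, -0.04 and -0.09. The windows of Dtx3l (-1.13), Xaf1 (-1.12) and Irf9 (-0.66) held no such match. A link between matches and differences was not tested.

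On the arrays, values were read as log2 intensities. Array medians ran from 3.31 to 3.40, and members with a mean log2 value of at least 6 over the 4 arrays were treated apart from dimmer ones. There were 23 such brighter members and 17 dim ones. The brighter members closest to the threshold were Stat2 (6.05) and Igtp (6.80), and the dim members closest to it were Tap2 (5.76) and Ifit1 (5.74).

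The arrays carried the markers of the labelled cell type. All 12 mesenchymal markers, Col1a1, Pdgfra and Thy1 among them, averaged 6 or more. Of 11 leukocyte markers only Cd14 did, 7 lay below the median of each array, and their mean level was 3.41 to 3.48 in BMP3 arrays and 3.34 to 3.42 in control arrays. All 6 endothelial markers were below every array's median. Of 4 plasmacytoid dendritic markers only Tcf4, and of 6 epithelial markers only Epcam, averaged 6 or more. The Epcam probe set carries a suffix for probes that may bind related transcripts. Poly-A spike-ins, which are added to the RNA and are not cell transcripts, averaged 6.46 and 6.50 in BMP3 replicates 1 and 2, and 7.76 and 6.89 in control replicates 1 and 2. The 18S ribosomal RNA probe sets averaged 8.99 and 9.90 in BMP3 arrays and 11.41 and 10.50 in control arrays. Hybridization spike-ins averaged 11.12 to 11.27 in BMP3 arrays and 11.21 to 11.23 in control arrays. The part of the spike-in and 18S differences in the results below was not tested.

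The comparison of BMP3-treated with control cells asked which of these genes differed after 6 hours. A subset of interferon-stimulated genes had lower values in both BMP3 arrays than in both control arrays, among them Xaf1, Bst2, Dtx3l, Irf9 and Gbp2. Of the brighter receptor and class I members, Ifnar2 alone had both BMP3 arrays under both control arrays, at a smaller difference. None of the 40 members passed an adjusted p of 0.05 in limma (smallest adjusted p = 0.271), as none of the 45037 probe sets did (0% called, smallest adjusted p = 0.213, 2112 lower and 1667 higher at an unadjusted p under 0.05). Of all 40 members, 9 were lower and 0 higher at an unadjusted p under 0.05, against 823 lower and 960 higher of all 18193 genes. Of the probe sets, 4.69% were lower and 3.70% higher. By that threshold, 6 of the 23 brighter members were lower and 0 higher, against 8.33% of 9185 equally bright genes lower and 9.87% higher. With a difference of at least 1.5-fold as well, 5 were lower and 0 higher, against backgrounds of 2.83% and 2.00%. Both BMP3 arrays lay under both control arrays for 9 of the 23, against 21.7% of all such genes, and over both for 0 of the 23, against 26.1%. In a bulk culture, less RNA per cell and fewer cells expressing a gene cannot be told apart.

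**Figure D1:**
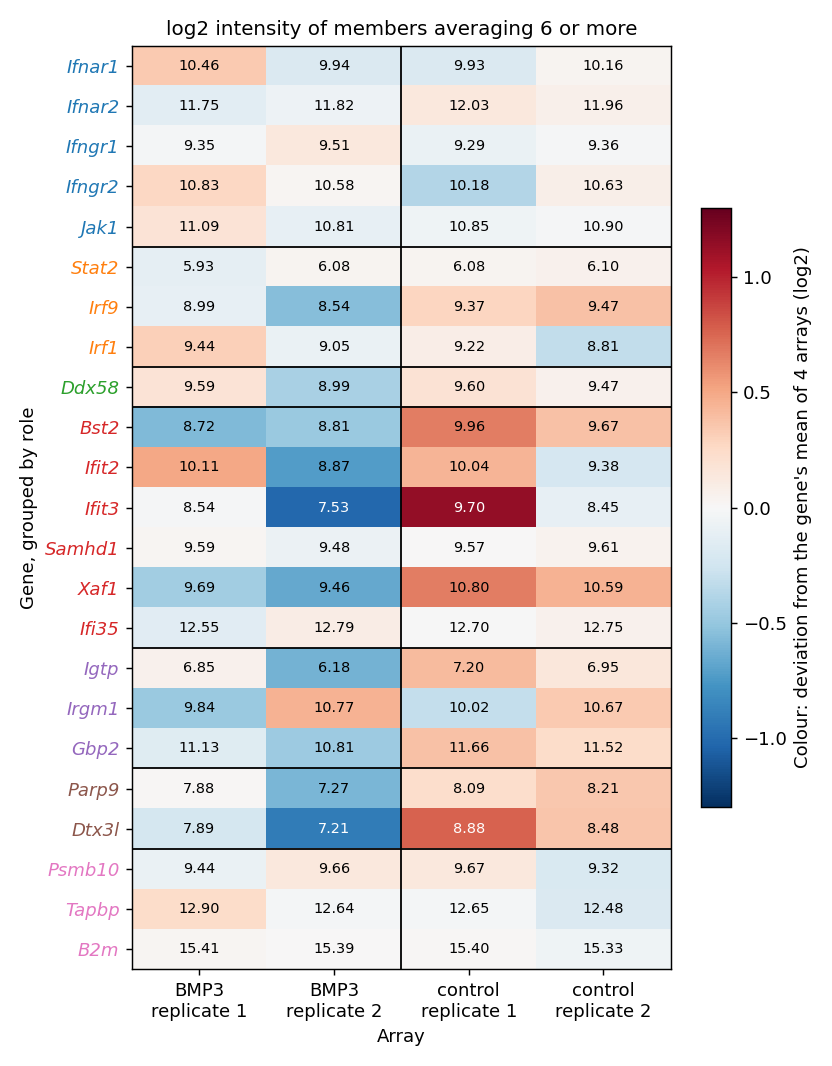
The log2 intensity of the 23 members averaging 6 or more on each array (printed in the cells), BMP3 arrays left and control arrays right, with genes grouped by role. Colour is the deviation from the gene's mean of 4 arrays. Bst2, Xaf1 and Dtx3l were low on both BMP3 arrays and high on both control arrays, while Ifit2 and Irgm1 followed the replicate number.

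The receptor chains and their kinase had 4 members higher and 1 lower, with a median log2 difference of 0.10 (BMP3 minus control, as for every difference below). Ifnar2, a chain of the type I interferon receptor, stood at 11.75 and 11.82 in BMP3 replicates 1 and 2 and at 12.03 and 11.96 in control replicates 1 and 2. The groups did not overlap, and the difference was -0.21 (SE 0.05, limma adjusted p = 0.477). All 3 probe sets of Ifnar2 were lower, from -0.27 to -0.18. Its partner Ifnar1 stood at 10.46 and 9.94 in BMP3 arrays and at 9.93 and 10.16 in control arrays. These groups overlapped (difference 0.15, SE 0.23), and the other probe set of Ifnar1 averaging 6 or more had -0.28.

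Ifngr1, the ligand-binding chain of the interferon gamma receptor, had 9.35 and 9.51 in BMP3 arrays against 9.29 and 9.36 in control arrays. Ifngr2, its signalling chain, had 10.83 and 10.58 in BMP3 arrays against 10.18 and 10.63 in control arrays. In both genes the groups overlapped, with differences of 0.10 ± 0.08 and 0.30 ± 0.21 (± SE). Jak1, the kinase that both receptors use, stood at 11.09 and 10.81 in BMP3 arrays and at 10.85 and 10.90 in control arrays (difference 0.07, SE 0.12). Its 3 probe sets did not go one way: a second had 0.35 ± 0.10 and the dimmest -1.27 ± 0.45.

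Among the transcription factors, Irf9, the DNA-binding subunit of ISGF3, stood at 8.99 and 8.54 in BMP3 arrays against 9.37 and 9.47 in control arrays. Both BMP3 values were under both control values, BMP3 replicate 2 being the lowest, and the difference was -0.66 (SE 0.19, 95% interval -1.23 to -0.09, limma adjusted p = 0.525). Stat2, which carries the activation domain of the same complex, was at 5.93 and 6.08 in BMP3 arrays and at 6.08 and 6.10 in control arrays. The difference was -0.09 ± 0.07, at a level close to the dim range. The groups were barely apart, with BMP3 replicate 2 at 6.077 and control replicate 1 at 6.081. The other Stat2 probe set was dim but above every array's median, at 4.47 and 4.57 in BMP3 arrays against 4.615 and 5.90 in control arrays. Its difference was -0.74 ± 0.51, with control replicate 2 alone high, and the mean of both probe sets gave -0.41. Irf1, a factor induced by interferon gamma, stood at 9.44 and 9.05 in BMP3 arrays and at 9.22 and 8.81 in control arrays, with overlapping groups (0.23 ± 0.23). Irf7, the factor that amplifies type I interferon production, lay between 1.81 and 1.89 on all arrays.

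Of the sensors of viral RNA, only Ddx58, which encodes RIG-I, averaged 6 or more. It had 9.59 and 8.99 in BMP3 arrays and 9.60 and 9.47 in control arrays. BMP3 replicate 2 alone was low, the groups overlapped, and the difference was -0.24 ± 0.25. The second bright Ddx58 probe set had 7.61 and 7.01 in BMP3 arrays against 8.13 and 7.89 in control arrays, a difference of -0.70 ± 0.26 without overlap (limma adjusted p = 0.661). The related sensors Ifih1 (MDA5) and Dhx58 (LGP2), and Trim25, a ubiquitin ligase that acts on RIG-I, were below the median of each array.

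The antiviral effectors held the members with the smallest p-values, and all 6 of the brighter ones had lower means (median -0.63). Of all equally bright genes, 46.7% had a lower mean. No gene of the 6 lay near that median. Xaf1, Bst2 and Ifit3 had -1.12, -1.05 and -1.04, while Ifit2, Samhd1 and Ifi35 had -0.22, -0.06 and -0.06. Xaf1, a pro-apoptotic binding partner of XIAP, stood at 9.69 and 9.46 in BMP3 arrays, against 10.80 and 10.59 in control arrays. The gap between the groups exceeded the step between replicates of either group. Its difference was -1.12 (SE 0.13, 95% interval -1.51 to -0.73, limma adjusted p = 0.271), or 2.17-fold on the linear scale. Its only other probe set was dim and lay below the median on every array, and with the mean of both the difference was -0.57, short of the 1.5-fold threshold. The Xaf1 window held no GAAANNGAAA match.

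Bst2, which encodes tetherin, a membrane protein that holds budding virions at the cell surface, had 8.72 and 8.81 in BMP3 arrays against 9.96 and 9.67 in control arrays. Again the groups did not overlap, and the difference of -1.05 ± 0.12 (limma adjusted p = 0.283) equalled 2.08-fold. Bst2 had a single probe set of its own.

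The IFIT proteins bind foreign RNA ends and block their translation. Ifit3 stood at 8.54 and 7.53 in BMP3 arrays and at 9.70 and 8.45 in control arrays. Control replicate 2 lay under BMP3 replicate 1, so the groups overlapped, and the difference was -1.04 with a standard error of 0.64. Ifit1, a dim member on average, had 5.51 and 4.09 in BMP3 arrays and 7.62 and 5.75 in control arrays. Control replicate 1 was the highest and BMP3 replicate 2 the lowest array for both genes. The groups of Ifit1 did not overlap, but its difference of -1.89 had a standard error of 0.93 (limma adjusted p = 0.807). Ifit2 had 10.11 and 8.87 in BMP3 arrays and 10.04 and 9.38 in control arrays. Here replicate 2 was lower than replicate 1 in both groups, and the difference was -0.22 ± 0.55. Ifit2 and Ifit3 are neighbours on chromosome 19 with 0 protein-coding genes between them, and Ifit1 follows after 3 others.

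Samhd1, a dNTP hydrolase that restricts retroviruses, had 9.59 and 9.48 in BMP3 arrays and 9.57 and 9.61 in control arrays at its brightest probe set (difference -0.06 ± 0.06). The next probe set had a difference of -0.23 ± 0.05 and the dimmest one averaging 6 or more -1.02 ± 0.41. All 3 were thus lower by different amounts. Ifi35, an interferon-induced leucine zipper protein, stood at 12.55 and 12.79 in BMP3 arrays and at 12.70 and 12.75 in control arrays, and its 3 probe sets ran from -0.06 to 0.03.

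**Figure D2:**
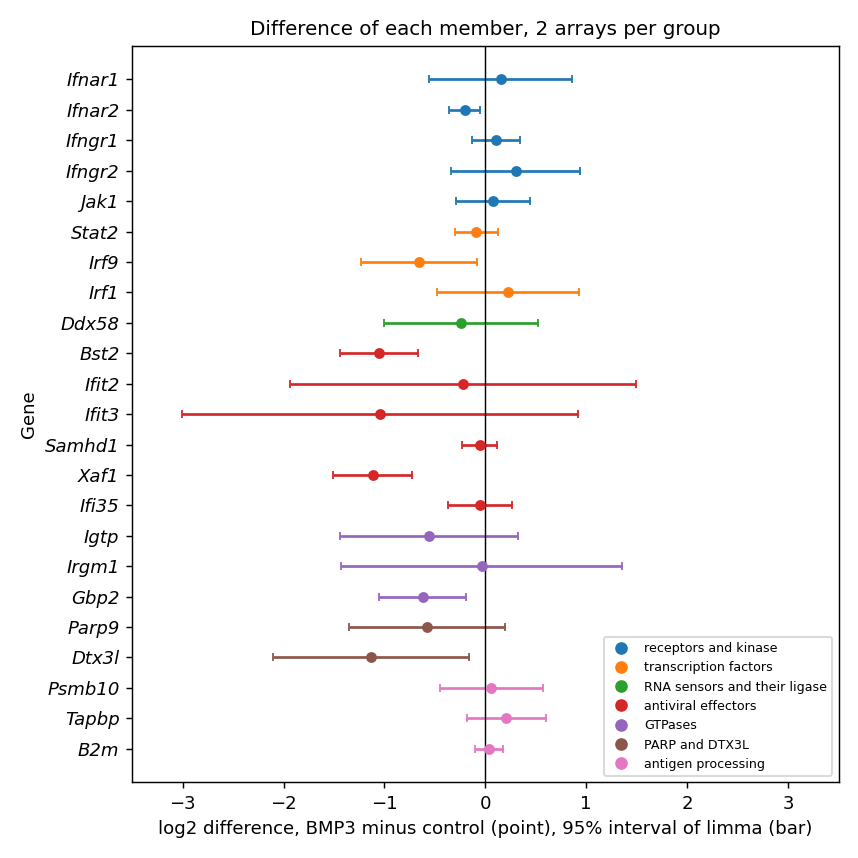
The log2 difference (BMP3 minus control, points) of the 23 members averaging 6 or more, with limma's 95% interval (bars) from 2 arrays per group, coloured by role. The intervals of Bst2, Xaf1, Dtx3l, Gbp2, Irf9 and Ifnar2 lie below 0, while those of Ifit2, Ifit3 and Irgm1 are wide.

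The interferon-inducible GTPases attack the vacuoles of intracellular pathogens. Gbp2, a guanylate-binding protein, stood at 11.13 and 10.81 in BMP3 arrays against 11.66 and 11.52 in control arrays. The groups did not overlap, and the difference was -0.62 (SE 0.14, limma adjusted p = 0.441). This probe set carries a suffix for probes that may bind related transcripts. The other Gbp2 probe set, without that suffix, had -0.54 ± 0.20, short of 1.5-fold (limma adjusted p = 0.662). Igtp (Irgm3) had 6.85 and 6.18 in BMP3 arrays and 7.20 and 6.95 in control arrays, also without overlap (-0.56 ± 0.29). Irgm1, which regulates the other GTPases of its family, had 9.84 and 10.77 in BMP3 arrays and 10.02 and 10.67 in control arrays. It followed the replicate number and not the treatment, with a difference of -0.04 ± 0.45. Gbp3 was dim, at 4.58 and 4.11 in BMP3 arrays and 4.42 and 4.57 in control arrays.

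DTX3L, a ubiquitin ligase, and PARP9, an ADP-ribosyltransferase family member, form a complex in the interferon and DNA damage responses. Dtx3l stood at 7.89 and 7.21 in BMP3 arrays against 8.88 and 8.48 in control arrays. Both BMP3 values were lower than both control values, and the difference was -1.13 (SE 0.31, 95% interval -2.10 to -0.16, limma adjusted p = 0.517). Its second probe set had 6.68 and 6.58 in BMP3 arrays against 7.37 and 7.46 in control arrays. That gave a difference of -0.79 with the smaller standard error of 0.06 (limma adjusted p = 0.224). Parp9 had 7.88 and 7.27 in BMP3 arrays against 8.09 and 8.21 in control arrays, without overlap (-0.58 ± 0.25). Parp14, another gene of this locus, was at 2.74 and 2.71 in BMP3 arrays, under every array median, and at 3.21 and 3.60 in control arrays, so no difference is given. In RefSeq, Parp14, Dtx3l and Parp9 lie side by side on chromosome 16 with 0 protein-coding genes between neighbours.

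**Figure D3:**
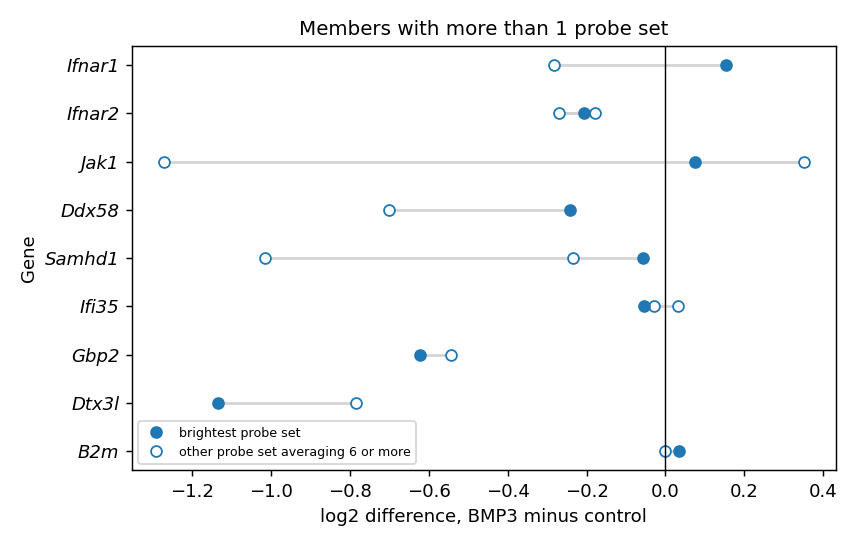
The log2 difference (BMP3 minus control) at each probe set averaging 6 or more, for the 9 members with more than 1 such probe set; filled points are the brightest probe set of a gene and open points the others. Both probe sets of Dtx3l (-1.13 and -0.79) and of Gbp2 (-0.62 and -0.54) had similar differences, while those of Jak1 ran from -1.27 to 0.35.

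Of the antigen processing genes, the 3 brighter ones each had a slightly higher mean (median 0.06), and their difference from the antiviral group was not tested. B2m encodes beta-2-microglobulin, the invariant light chain of MHC class I. It stood at 15.41 and 15.39 in BMP3 arrays and at 15.40 and 15.33 in control arrays. The groups overlapped, the difference was 0.04 ± 0.04, and its second probe set had a difference of -0.00095 on the same scale. Tapbp, which encodes tapasin, the protein that bridges class I molecules to the peptide transporter, had 12.90 and 12.64 in BMP3 arrays and 12.65 and 12.48 in control arrays (0.21 ± 0.13). Psmb10, a catalytic subunit of the immunoproteasome, had 9.44 and 9.66 in BMP3 arrays and 9.67 and 9.32 in control arrays (0.06 ± 0.17).

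The other immunoproteasome subunits and both peptide transporter chains were dim. Tap2 stood at 5.56 and 5.31 in BMP3 arrays against 6.30 and 5.88 in control arrays. It was the exception in its group, without overlap and with a difference of -0.66 ± 0.19 (limma adjusted p = 0.549). Psmb9 had 3.99 and 4.17 in BMP3 arrays and 4.54 and 3.99 in control arrays. Psmb8 and Tap1 were below the median of each array, between 2.72 and 3.32. Psmb9, Tap1, Psmb8 and Tap2 are consecutive genes of the MHC region on chromosome 17. The difference of Psmb9 was -0.19 ± 0.23, and that between Tap2 and its neighbours was not tested.

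Of the 17 dim members, 11 were below the median of every array. They were Mx1, Mx2, Oas1a, Oasl2, Rsad2, Ifih1, Dhx58, Irf7, Trim25, Psmb8 and Tap1, classic interferon-induced genes for the most part. Their values lay between 1.81 and 3.32, and no difference is read from them. Usp18, which removes ISG15 from proteins and dampens IFNAR2 signalling, stood at 2.71 and 2.21 in BMP3 arrays, below each array's median, and at 4.22 and 3.82 in control arrays. Both control values were above both BMP3 values, but no difference is given for a level in that range. Only Ifit1, Tap2, Gbp3 and Psmb9 of the dim members lay above the median of each array.

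**Figure D4:**
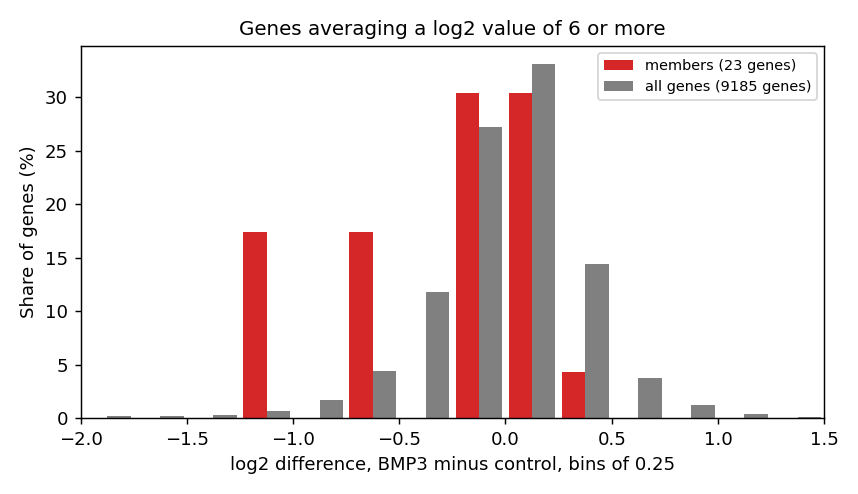
The share of genes (percent) in bins of 0.25 of the log2 difference (BMP3 minus control) for the 23 members (red) and all 9185 genes (grey) with a mean log2 value of at least 6. Of the members, 8 lay at -0.5 or lower and 0 at 0.5 or higher, while 15 lay between these bounds.

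Seen against all genes of this brightness, a larger share of the members had differences of -0.5 or lower, although single genes reached -3.01. A difference of -0.5 or lower was found for 8 of 23 members (34.8%) and for 7.65% of all such genes. A difference of -1 or lower was found for Ifit3, Bst2, Xaf1 and Dtx3l, or 17.4%, against 1.54%. A difference of 0.5 or more was found for 0 members and for 5.79% of genes. The centre moved less: 15 members had a lower mean and 8 a higher one, where 46.7% of all such genes had a lower mean. The members' median difference was -0.09, beside 0.02 for all such genes. These shares are descriptions.

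Members also varied along the replicate number. In BMP3 arrays replicate 2 was lower than replicate 1 for 16 of 23 members, in control arrays for 13, and in both groups for 10 (43.5%). The same held in both groups for 41.7% of all genes of this brightness, so the members did not stand out by this count. Further interferon-stimulated and signalling genes, read below, did. Ifit3 changed by -1.005 between the BMP3 arrays and by -1.25 between the control arrays, steps close in size to its difference between treatments. Within the same number Ifit3 was lower after BMP3 both times, by -1.17 for replicate 1 and -0.92 for replicate 2. Ifit2 changed by -1.23 and -0.66, and Irgm1 by 0.93 and 0.65, in that order of groups. By contrast Bst2 changed by 0.09 and -0.29 and Xaf1 by -0.22 and -0.21, less than their differences between treatments. Whether same-numbered arrays shared a day or batch is not stated by the labels.

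**Figure D5:**
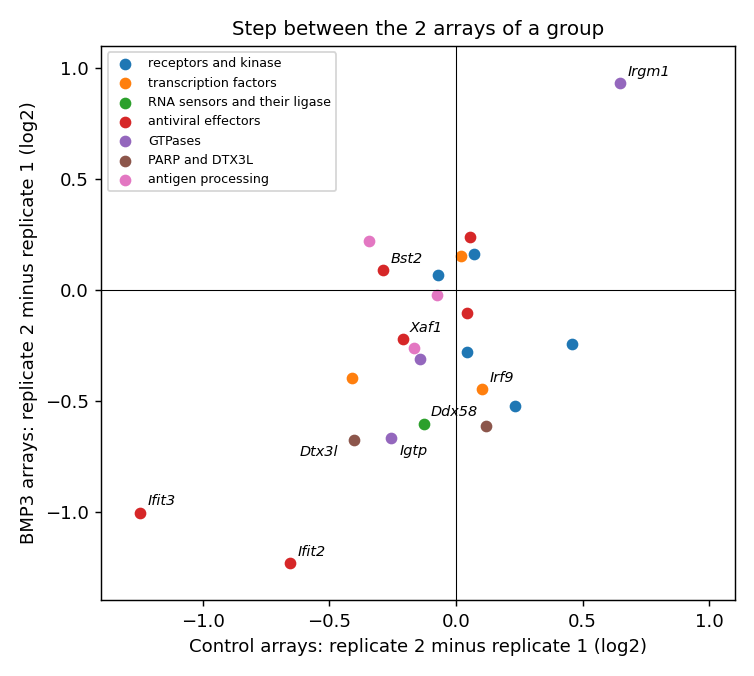
The step from replicate 1 to replicate 2 (log2) within BMP3 arrays (vertical) and within control arrays (horizontal) for the 23 members averaging 6 or more, coloured by role. Ifit2 and Ifit3 lie far in the lower left, Irgm1 far in the upper right, and Bst2 and Xaf1 near the centre.

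Single arrays were left out in turn to see how far each difference rested on 1 array. Each such fit sets 1 array against 2, so its spread comes from the other group alone and the lone array is assumed to vary like it. The differences of Xaf1 (-1.23 to -1.01) and Bst2 (-1.20 to -0.91) moved little over the 4 fits. That of Dtx3l ran from -1.47 to -0.79, being -0.79 without BMP3 replicate 2, and that of Gbp2 from -0.78 to -0.46. Without BMP3 replicate 2, the lower of the BMP3 arrays for these genes, Irf9 had -0.43, Parp9 -0.27 and Igtp -0.22. Without BMP3 replicate 1, Parp9 had -0.88 and Igtp -0.89. Ifit3 had -0.54 with BMP3 replicate 2 left out. It had -0.42 when control replicate 1 was dropped and -1.67 when control replicate 2 was. Among the higher members, Irf1 ran from 0.02 to 0.43, Ifngr2 from 0.07 to 0.53 and Tapbp from 0.08 to 0.34.

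With all arrays, 8 of the 40 measured members had an unadjusted p under 0.05 and at least a 1.5-fold difference, all lower, where 1.65% of all 18193 genes were lower and 1.18% higher. They were Bst2, Usp18, Irf9, Gbp2, Tap2, Xaf1, Parp14 and Dtx3l, of which Usp18 and Parp14 lay below the array medians after BMP3. Parp14 was also below the median on control replicate 1 (3.21, median 3.35). Usp18 and Parp14 thus enter the count by their values alone, at a level for which no difference is given. Without BMP3 replicate 1 the count was again 8, with Igtp and Parp9 in place of Tap2 and Parp14, while the share of all genes that were lower was 3.28%. Without BMP3 replicate 2 it was 3, beside 1.46% of all genes. Leaving out control replicate 1 gave 4, beside 1.099% of all genes, and leaving out control replicate 2 also gave 4, beside 2.25%. Bst2, Usp18 and Xaf1 were in the count each time.

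Other genes of the pathway were read from lists that held no member. Of 62 further interferon-stimulated genes, 54 were measured and 28 averaged 6 or more. Of these 28, 23 had lower and 5 higher means (median -0.27), 3 were lower and 0 higher past the unadjusted p with 1.5-fold, and 0 passed the adjusted threshold. Of all equally bright genes, 46.7% had a lower mean, and 2.83% were lower and 2.00% higher past that looser threshold. Both BMP3 arrays lay under both control arrays for 12 of the 28 and over both for 2, beside 21.7% and 26.1% of such genes. These genes also varied along the replicate number. Replicate 2 was lower than replicate 1 in both groups for 20 of the 28 (71.4%), against 41.7% of such genes. The part of this step in their differences was not tested. Eif2ak2, which encodes the double-stranded RNA kinase PKR, stood at 9.44 and 9.27 in BMP3 arrays against 10.25 and 10.09 in control arrays. Its groups did not overlap, and its difference was -0.81 ± 0.10 (limma adjusted p = 0.287). Ccl5, a chemokine, had 6.42 and 6.44 in BMP3 arrays against 7.63 and 7.21 in control arrays (-0.99 ± 0.17). Lgals9, a galectin, had -0.93 ± 0.28 and Ifitm3, which blocks viral entry, -0.42 ± 0.13. The 2 higher on both BMP3 arrays, named after their values were seen, were Mlkl, an effector of necroptosis (0.75 ± 0.43), and Adar, an RNA-editing enzyme (0.22 ± 0.08).

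Of 27 further signalling and sensing genes, 16 averaged 6 or more, and these split evenly into 8 lower and 8 higher (median 0.02). Replicate 2 was lower than replicate 1 in both groups for 12 of the 16 (75%). Socs3, an inhibitor of cytokine receptors that STAT3 induces, had 11.75 and 11.12 in BMP3 arrays against 12.57 and 12.30 in control arrays (-1.004 ± 0.27, limma adjusted p = 0.509). The Socs3 probe set carries the suffix for probes that may bind related transcripts. Tyk2, the kinase that pairs with JAK1 at the type I receptor, had 0.23 ± 0.15, Stat3 -0.29 ± 0.20 and the phosphatase gene Ptpn11 0.28 ± 0.15. Of 7 measured interferon genes only Ifnz, interferon zeta, averaged 6 or more. It stood at 11.78 and 11.21 in BMP3 arrays against 12.16 and 12.28 in control arrays, with a difference of -0.73 ± 0.23 (limma adjusted p = 0.588).

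Of 23 further antigen processing genes, 8 averaged 6 or more, with 5 lower and 3 higher (median -0.03). Replicate 2 was lower than replicate 1 in both groups for only 1 of the 8 (12.5%). H2-D1, a class I heavy chain, had 10.17 and 10.07 in BMP3 arrays against 10.82 and 10.41 in control arrays (-0.50 ± 0.17, limma adjusted p = 0.624). Its probe set and that of H2-K1 (-0.14 ± 0.06) carry a suffix for probes that may bind related transcripts, and class I genes are nearly identical, so these values are uncertain. The proteasome activator Psme1 had -0.07 ± 0.04, the chaperone Canx 0.11 ± 0.08 and the peptide trimming enzyme Erap1 0.16 ± 0.13. Of the constitutive proteasome subunits that the immunoproteasome replaces, Psmb5 had 0.40 ± 0.13, Psmb6 0.19 ± 0.08 and Psmb7 -0.23 ± 0.37. Psmb5 and Psmb6 were higher on both BMP3 arrays than on both control arrays.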

How the data were processed

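Biotin-labelled cRNA from total RNA of mouse C3H10T1/2 cells was measured on Affymetrix 3′ arrays, per the labels' protocols. Each probe set has 1 deposited value per array, read as log2 intensity from the range of the values. No source used here states the scale, the background correction or the normalization. Partek is named, without a version, in the submitters' processing notes. No detection calls were used, so dimness was judged by level alone.

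Groups and replicate numbers came from the sample titles. Besides 64 control probe sets, which were left out, the table has 45037 probe sets. The platform annotation gives 1 symbol for 34945, several for 932 (none named here) and none for 9160. The Entrez identifiers of all 40 measured members matched RefSeq (GRCm38.p6), used for names, neighbours and promoter windows. BMP3 and control arrays were compared by limma 3.58.1 in R 4.3.3 (lmFit, eBayes, two-sided, no term for replicate number, 1.18 prior degrees of freedom). The Benjamini-Hochberg method adjusted p over all tested probe sets, with 0.05 as the threshold. Calls at unadjusted p under 0.05, with and without a difference of 1.5-fold, served as looser counts. A difference was given where a gene averaged at least 6 or lay above every array's median. With 2 arrays per group, precision is limited.

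The members and lists were chosen with earlier results of these data known. All members are accounted for. From each further list up to 4 genes averaging at least 6 with the smallest p were named, besides Psmb5, Psmb6, Psmb7, H2-K1 and H2-D1, and a further gene with no value here. In simulated data of 45037 probe sets in this design, with 200 changed ones averaging at least 6, the adjusted threshold called 7% of log2 changes of 1 and 25% of changes of 2. The looser threshold with 1.5-fold called 85% and 97%. The simulated noise was independent between arrays, with each probe set's spread taken from these arrays. In the data, same-numbered arrays deviated together (r = 0.596), which the simulation left out. Alternatives were the replicate block, leaving out single arrays, median centring, quantile and cyclic loess normalization, 2 filters on dim probe sets, a prior with an intensity trend, adding 16 on the linear scale, and averaging all probe sets of a gene.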

Additional observations from a re-analysis of the deposited data

How the results depend on the processing

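Over 13 alternatives, 14 of the 23 members with a mean log2 value of at least 6 kept the direction of their difference in each. They were Bst2, Dtx3l, Gbp2, Ifit3, Ifnar2, Ifngr1, Ifngr2, Igtp, Irf1, Irf9, Parp9, Samhd1, Tapbp and Xaf1. The replicate block, the 2 filters on dim probe sets and the trend prior leave every difference unchanged, so they cannot turn a direction. Averaging probe sets likewise changes nothing for a gene with a single probe set, such as Bst2. Where the groups do not overlap, leaving out 1 array or adding 16 on the linear scale cannot turn a direction either. That holds for Bst2, Dtx3l, Gbp2, Ifnar2, Igtp, Irf9, Parp9 and Xaf1. For Bst2, only median centring, quantile and cyclic loess normalization could have turned it. No probe set, members included, passed limma's adjusted threshold under the 12 run over probe sets (0 to 0 with arrays left out in turn), and no gene did with the mean of all its probe sets. The looser count over all probe sets was 1265 with all arrays, 1071 to 2277 with 1 array left out and 2164 with the replicate block. For members it was 3 to 8 with 1 array left out, 5 without probe sets averaging under 6, 4 with 16 added on the linear scale and 5 with the mean of all probe sets of a gene. With the replicate block it was 10 members, all lower, Ifit1 and Ifit3 being added to the 8. The share of all genes called as lower was 2.96% with the block, against 1.65% without it. With 16 added on the linear scale that share was 1.19%, and with the mean of all probe sets of a gene 1.29%. Without probe sets averaging under 6, only 23 members and 9185 genes were tested, and 3.51% of these genes were lower. The 5 members called there are thus not comparable with counts out of 40. Among brighter members, limma's unadjusted threshold gave 7 lower and 2 higher with the block. Without it the counts were 6 and 0, beside 8.33% and 9.87% of equally bright genes. Those shares are not given for the block, so its 7 and 2 cannot be read against a background. The block raised calls over all genes as well, from 515 to 922 at the unadjusted threshold with 1.5-fold. With the block, Ifit3 and Igtp were added as lower, Irf1 and Tapbp as higher, and Ifnar2 was lost. The limma adjusted p with the block was 0.14 for Ifit3 and 0.267 for Irf1. Same-numbered arrays deviated together (r = 0.596 across 17152 probe sets averaging 6 or more, which are not independent replicates), but the labels do not pair them. The members' median difference was -0.17 to -0.10 with 1 array left out (-0.17 without BMP3 replicate 2) and -0.25 with the mean of all probe sets of a gene.

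Members whose direction turned had small differences or wide spread. With arrays left out in turn, Ifit2 ran from -0.84 to 0.39, Irgm1 from -0.50 to 0.43, Psmb10 from -0.11 to 0.23, Ddx58 from -0.54 to 0.0604, Ifi35 from -0.17 to 0.0640, Ifnar1 from -0.11 to 0.41, Jak1 from -0.067 to 0.22 and B2m from -0.00125 to 0.07165. Under quantile normalization Stat2 had 0.0794 and B2m -0.00795. B2m had -0.0345 under cyclic loess and Irgm1 0.001385 under median centring. With the mean of all probe sets of a gene Ifnar1 had -0.0645 and Jak1 -0.28. The causes were not tested. Signal near the array medians limits what can be read for the 17 dim members.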
